A study of Mus musculus with 10 samples.

Results

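The mRNAs of translation initiation and elongation factors were compared between olfactory epithelium of Apoe4 and of Apoe3 mice. The genes were taken by name from the authors' deposited table, as the symbols that begin with Eif1 to Eif6 or with Eef1 or Eef2. Left out were 3 genes, the sex-linked pair Eif2s3x and Eif2s3y and the eIF2 kinase gene Eif2ak4. This gave 61 of the 24421 genes in the table. Of these, 58 were tested by the authors, and the other 3, Eif3j1, Eif3j2 and Eif4e1b, were marked low and had no adjusted p. Olfactory epithelium is the sensory lining of the nose. There were 4 Apoe3 and 6 Apoe4 libraries, from untreated mice on a C57BL/6 background that were 6 months old. The genotypes are human alleles of Apoe, whose product carries lipids. How an allele was brought into the mice, and the sex of the mice, are not in the labels. The submitters call the libraries biological replicates and do not say that each came from a separate animal.

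Initiation factors bring the small ribosomal subunit, the initiator tRNA and the mRNA together. The factor eIF2 carries the initiator tRNA, eIF3 is the scaffold on the small subunit, and eIF4F binds the cap of the mRNA. Elongation factors then deliver each aminoacyl-tRNA (eEF1A) and move the ribosome along the mRNA (eEF2), and kinases that act on eIF2 or eEF2 slow the process under stress. Most of these proteins are made in every cell type, and in whole tissue fewer cells of a type and less RNA per cell cannot be told apart.

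The table holds 1 mean and 1 comparison per gene, so values by library were not analysed here. Genes whose only read was in 1 library gave the libraries' size factors, 0.859 to 1.14 for the Apoe3 group and 0.891 to 1.16 for the Apoe4 group. Multiplied by the sum of all mean normalized counts, these correspond to about 14938522 to 20105203 reads per library, an estimate that takes the normalized totals as equal. These genes also set the direction: their means formed 6 levels with positive folds and 4 with negative folds, which match the 6 Apoe4 and 4 Apoe3 libraries, so a positive fold is higher in Apoe4. The tissue label was met by high mean normalized counts per the authors' deposited table for Omp of mature olfactory neurons (113676), Cyp2g1 of sustentacular cells (63586) and Bpifa1 of nasal glands (254337). Of the listed markers of other cells, those of red cells differed per the authors' deposited table, Alas2 at -0.46 and Slc4a1 at -0.27 (adjusted p = 0.00337 and 0.00509), with the 4 haemoglobin genes listed at 0. Of 6 sustentacular markers 1 passed, Cbr2 at -0.26 per the authors' deposited table (adjusted p = 0.0421). The others did not, with Cyp1a2 at 0.075 and the rest at negative folds. Of 4 immature neuron markers 1 passed, Dpysl3 at 0.24 per the authors' deposited table (adjusted p = 0.0272). Gap43 at 0.11, Gng8 at 0.064 and Stmn2 at -0.081 did not. None of 7 macrophage markers passed. Genes of the Y chromosome were lower in Apoe4, from -3.72 for Eif2s3y to -2.80 for Kdm5d per the authors' deposited table (adjusted p from 5.3e-282 to 1.4e-152), with Uty at -3.53 and Ddx3y at -3.50. Xist stood at 6.41, Kdm6a at 0.75, Eif2s3x at 0.58 and Kdm5c at 0.53 per the authors' deposited table. Genotype and this sex-linked difference therefore cannot be told apart for any gene below.

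Of the members, 0 of 58 passed the authors' DESeq2 test of Apoe4 against Apoe3 (threshold, an adjusted p of 0.05). The test called 0.779% of all 16050 genes tested, 0.324% as higher and 0.455% as lower. The initiation factor genes Eif2s3x and Eif2s3y, which the rule left out, did pass (adjusted p = 1.1e-23 and 5.3e-282). At an unadjusted p under 0.05 there were 8 members, a share of 13.8%, beside 10.3% of all genes tested. Of these 8, 6 had negative folds (10.3% of members, beside 5.76% of all genes) and 2 had positive folds (3.45%, beside 4.54%). The negative ones were Eif3i, Eif3f, Eif3h, Eif3k, Eif1 and Eif4a2, and the positive ones were Eif2ak2 and Eif4g1. The largest distances from 0 per the authors' deposited table were -0.25 for Eif3i and 0.22 for Eif2ak2 on the log2 scale. Negative folds were held by 39 of the 58 members (67.2%), beside 48.9% of all genes tested. The median log2 fold change was -0.023 over the members and 0.0026 over all genes tested.

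The deposited folds are shrunk towards 0, and undoing this by the ratio of each error to its ceiling gave estimates that were larger in size, up to 0.29 on the log2 scale among the members. The same errors give the precision of the comparison. A member would have needed a change of 0.31 on the unshrunken log2 scale, the median over members, to reach the smallest Wald statistic of any gene called, with a range from 0.18 to 0.67. For all 58 members the 95% interval of the unshrunken change lay within 0.5 of 0 on the log2 scale. A change smaller than a member's own needed size would not have been called with these libraries.

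**Figure D1:**
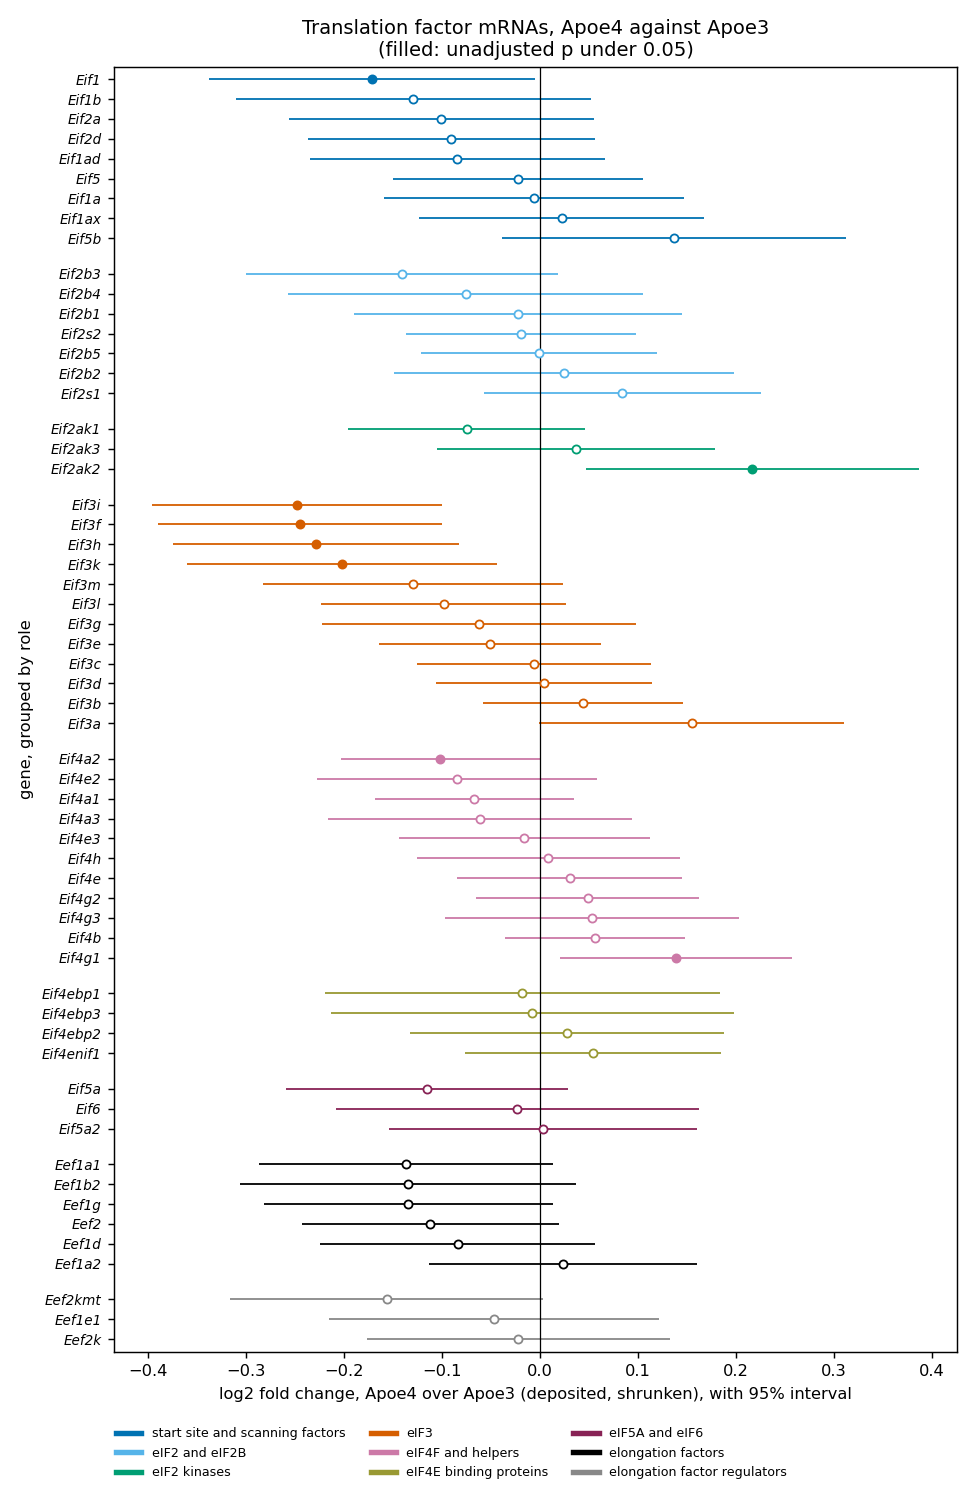
Log2 fold change of the 58 tested translation factor genes (x axis, Apoe4 over Apoe3, the authors' shrunken values, bars are 95% intervals) by gene and role (y axis); filled points have an unadjusted p under 0.05. Filled points are the 4 eIF3 subunits between -0.25 and -0.20, with Eif1 at -0.17 and Eif4a2 at -0.10 to the left of 0 and Eif4g1 at 0.14 and Eif2ak2 at 0.22 to the right.

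Factors that act on the start codon were mostly on the negative side, with 7 of 9 at negative folds and a median of -0.084, or -0.049 with the trend of fold with transcript length, described further on, subtracted. Eif1, which guards the choice of the start codon, stood at -0.17 and an error of 0.08 (SE) per the authors' deposited table (p = 0.0436, adjusted p = 0.472). Its gene lies on chromosome 11, 100319949 to 100322099 (GRCm38). The derived mean of Eif1 was 8131 normalized counts in Apoe3 and 7007 in Apoe4, a difference of -13.8% whose 95% interval runs from -25.4% to -0.429%. With the length trend subtracted Eif1 stood at -0.099. Its close relative Eif1b stood at -0.13 per the authors' deposited table (adjusted p = 0.659). Eif5b, the GTPase that joins the ribosomal subunits, was the highest of these factors at 0.14 per the authors' deposited table (adjusted p = 0.62), and at 0.077 with the length trend subtracted. Eif1ax, the X-linked member, was at 0.022 and its autosomal copy Eif1a at -0.0058 per the authors' deposited table (adjusted p = 0.945 and 0.989), values that became -0.021 and 0.0042 with the length trend subtracted, unlike the X-linked genes Kdm6a and Eif2s3x given above, which passed. The difference between Eif1ax and those genes was not tested.

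The members that are parts of eIF2 or of its exchange factor eIF2B lay close to 0, with 5 of 7 at negative folds. Their median was -0.019 (0.020 with the length trend subtracted) and their adjusted p ran from 0.552 to 0.999. The genes of the gamma subunit of eIF2, the sex-linked Eif2s3x and Eif2s3y, are not among them. These stood at 0.58 and -3.72 per the authors' deposited table, and both passed. Eif2s1, the alpha subunit that the stress kinases phosphorylate, was at 0.084 and Eif2s2, the beta subunit, at -0.019 per the authors' deposited table. Among the 5 subunits of eIF2B, Eif2b3 was lowest at -0.14 and Eif2b2 highest at 0.024 per the authors' deposited table. Of the 3 eIF2 kinases among the members, Eif2ak2 (PKR, which senses double-stranded RNA) stood at 0.22 and an error of 0.09 (SE) per the authors' deposited table (p = 0.0125, adjusted p = 0.329). Its derived means were 393 normalized counts in Apoe3 and 476 in Apoe4, and the 95% interval of the difference ran from 4.21% to 40.8%. The gene lies on chromosome 17, 78850504 to 78882572. Eif2ak3 (PERK, of the endoplasmic reticulum) was at 0.037 and Eif2ak1 (HRI, which senses haem) at -0.075 per the authors' deposited table (adjusted p = 0.902 and 0.717).

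The subunits of eIF3 held 4 of the 8 members with an unadjusted p under 0.05, all with negative folds. In mammals this complex has an octamer core (a, c, e, f, h, k, l and m) to which the b, g and i subunits, d and the loosely bound j attach. Of 12 subunit genes tested, 9 had negative folds, with a median of -0.080, and none passed over all genes. Eif3i stood at -0.25 and an error of 0.08 (SE) per the authors' deposited table (p = 0.00103, adjusted p = 0.0977). Its derived mean was 1718 normalized counts in Apoe3 and 1403 in Apoe4, a difference of -18.3% with a 95% interval from -27.6% to -7.82%. Eif3f, of the core, stood at -0.24 and an error of 0.07 (SE) per the authors' deposited table (p = 9.4e-04, adjusted p = 0.0919). The derived means of Eif3f were 4027 in Apoe3 and 3304 in Apoe4, and the interval of the difference ran from -27.0% to -7.74%. Both genes passed only at the looser threshold of an adjusted p under 0.1.

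Eif3h and Eif3k, also of the core, followed at -0.23 and -0.20 per the authors' deposited table (adjusted p = 0.155 and 0.318). Eif3h had derived means of 3419 in Apoe3 and 2841 in Apoe4, and Eif3k of 1445 and 1219. Eif3m at -0.13, Eif3l at -0.098 and Eif3e at -0.051 completed the negative side of the core per the authors' deposited table, with Eif3c at -0.0059. Eif3a, the largest subunit, stood opposite at 0.15 and an error of 0.08 (SE) per the authors' deposited table (p = 0.0512, adjusted p = 0.487). Subunits of a single complex thus spanned folds from -0.25 to 0.15. The genes of the 4 subunits named above are scattered: Eif3i on chromosome 4 (129591974 to 129600648), Eif3h on chromosome 15 (51786563 to 51865461), Eif3f on chromosome 7 (108934415 to 108941942) and Eif3k on chromosome 7 (28971372 to 28981890). Eif3k lies 9.27 Mb and Eif3f 89.2 Mb from Apoe on that chromosome. Eif3h shared 7.68% of the 150-base stretches of its transcript with other annotated genes, so part of its reads may have been split or dropped in counting.

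The subunit j could not be read. Eif3j1 and Eif3j2 are both listed at 0 per the authors' deposited table, although j is made in most cells. The 2 transcripts are near copies: 77.1% of the 150-base stretches of Eif3j2 also occur in Eif3j1, and 32.7% of those of Eif3j1 in Eif3j2. Whether this sharing gave the zeros was not tested.

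Parts of the cap-binding complex eIF4F and its helpers fell on both sides, with 6 positive and 5 negative folds and a median of 0.0085 over 11 genes, or -0.0065 with the length trend subtracted. Eif4g1, the scaffold that joins the cap-binding protein to the ribosome, stood at 0.14 and an error of 0.06 (SE) per the authors' deposited table (p = 0.0215, adjusted p = 0.391). Its derived means were 6616 normalized counts in Apoe3 and 7354 in Apoe4, with an interval of the difference from 1.57% to 21.6%. Eif4a2, an RNA helicase, stood at -0.10 and an error of 0.05 (SE) per the authors' deposited table (p = 0.0491, adjusted p = 0.485), from 11133 derived counts in Apoe3 to 10325 in Apoe4. Both genes lie on chromosome 16, Eif4g1 at 20672720 to 20692883 and Eif4a2 at 23107468 to 23114132. The helicase paralog Eif4a1 was at -0.067 and the cap-binding protein Eif4e at 0.030 per the authors' deposited table (adjusted p = 0.699 and 0.90). Eif4b, which stimulates the helicase, was at 0.056 per the authors' deposited table with the smallest error of all members, 0.047. Eif4e1b, a germ line relative of Eif4e, had a mean of 0.204 normalized counts per the authors' deposited table and was not tested.

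The genes listed as eIF4E binding proteins lay near 0. Those named Eif4ebp block cap-dependent initiation when mTOR is low, and Eif4enif1 is not of that family. Eif4ebp1 was at -0.018, Eif4ebp2 at 0.028 and Eif4enif1 at 0.054 per the authors' deposited table. Over the 4 genes the adjusted p ran from 0.833 to 0.988. Eif5a, which helps the ribosome past proline stretches and carries the amino acid hypusine, stood at -0.12 and its paralog Eif5a2 at 0.0031 per the authors' deposited table (adjusted p = 0.601 and 0.995). With the length trend subtracted these became -0.048 and -0.037. Eif6, which keeps the ribosomal subunits apart, was at -0.023 per the authors' deposited table.

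Elongation factors had the lowest median of any role, -0.12, or -0.086 with the length trend subtracted. Of these factors 5 of 6 had negative folds and none had an unadjusted p under 0.05. Eef1a1, which delivers aminoacyl-tRNA to the ribosome, stood at -0.14 and an error of 0.08 (SE) per the authors' deposited table (p = 0.073, adjusted p = 0.534). Its derived means were 77553 normalized counts in Apoe3 and 69299 in Apoe4, and the interval of the difference ran from -21.0% to 1.05%. With the length trend subtracted the fold of Eef1a1 was -0.086. The exchange factor subunits Eef1b2 and Eef1g were both at -0.13 and Eef1d at -0.084 per the authors' deposited table (adjusted p = 0.614, 0.537 and 0.726). Eef2, the translocase, stood at -0.11 and an error of 0.07 (SE) per the authors' deposited table (adjusted p = 0.567), with derived means of 31646 in Apoe3 and 28991 in Apoe4. Eef1a2, the form of eEF1A typical of neurons and muscle, was the exception in sign, at 0.023 per the authors' deposited table (adjusted p = 0.938). Eef1g shared 41.7% and Eef1a1 10.1% of their 150-base stretches with other annotated genes, so their counts may be incomplete. Of the genes that act on elongation factors, Eef2kmt, which methylates eEF2, stood at -0.16 and Eef2k, the kinase that inactivates eEF2, at -0.022 per the authors' deposited table (adjusted p = 0.493 and 0.949). Eef1e1, a part of the tRNA synthetase complex despite its name, was at -0.047 per the authors' deposited table.

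Many elongation factor mRNAs, and those of a few eIF3 subunits, are known TOP mRNAs, which begin with a C and a run of pyrimidines and are translated under the control of mTOR and Larp1. Of 9 factor genes on a textbook list of such mRNAs, 8 had negative folds, with a median of -0.13, beside 0.0026 over all genes tested. Their median transcript was 2514 bases long, beside 3341 for all genes tested. Folds went with transcript length, as described further on. With that trend subtracted none of the 9 changed sign. Their values then ran from -0.22 for Eif3f to 0.043 for Eif4b, with Eef1a1 at -0.086 and Eef2 at -0.11. The median over the 9 was not taken with the trend subtracted. Eif3f and Eif3h belong to this list, and Eif4b was its positive exception. The list shares 5 of its 9 genes with the elongation factors, so the counts are not separate. RefSeq starts on GRCm38.p6 were found for 47 of the 61 members. A run of pyrimidines, defined as a C followed by at least 6 letters that are each C or T, was searched on the sense strand only, since it is a feature of the mRNA, in the 100 bases centred on each start. It was present for 25 of 46 tested members with a start (54.3%) and for 44.3% of all genes tested with a start. A gene was counted if any of its RefSeq starts had the run, so genes with more starts matched more easily. Eif5a, Eef2k and Eif4e, for example, had it at only some of their starts. The median fold was -0.062 for members with the run and 0.0031 for those without it, beside 0.0033 and -4.0e-04 for all genes tested. The length trend was not subtracted from these medians, and how much of the gap goes with length was not tested. The run is common, and a match says only that these letters occur near an annotated start.

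The sequences below show 25 bases on each side of the RefSeq start for listed TOP genes and for the other eIF3 core genes with the lowest folds among those with a RefSeq start here, with each such run in capitals. A run at the edge may continue past the bases shown. Eif3f is from chr7:108934390-108934439 (plus strand), Eif3k from chr7:28981864-28981913 (minus), Eif3l from chr15:79075198-79075247 (plus), Eif3m from chr2:105017003-105017052 (minus), Eef2 from chr10:81176606-81176655 (plus), Eef1a1 from chr9:78481700-78481749 (minus), Eef1b2 from chr1:63176806-63176855 (plus) and Eif4b from chr15:102073748-102073797 (plus).
Eif3f: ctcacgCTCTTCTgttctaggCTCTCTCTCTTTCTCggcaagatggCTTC
Eif3k: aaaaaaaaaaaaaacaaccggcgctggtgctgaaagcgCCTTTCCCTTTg
Eif3l: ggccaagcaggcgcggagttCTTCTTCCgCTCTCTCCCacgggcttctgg
Eif3m: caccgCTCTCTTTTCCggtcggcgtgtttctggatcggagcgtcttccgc
Eef2: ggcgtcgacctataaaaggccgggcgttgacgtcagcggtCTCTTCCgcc
Eef1a1: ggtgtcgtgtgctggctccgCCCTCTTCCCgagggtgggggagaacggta
Eef1b2: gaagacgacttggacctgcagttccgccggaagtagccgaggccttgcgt
Eif4b: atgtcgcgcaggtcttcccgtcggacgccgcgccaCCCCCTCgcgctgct
Eif3f, Eif3l and Eef1a1 had a run across the annotated start itself, Eif3k, Eef2 and Eif4b had it after the start, and Eif3m before it. Eif4b, the listed TOP gene with a positive fold (0.056 per the authors' deposited table), also had a run before the start, outside the bases shown. Eef1b2, a listed TOP gene at -0.13 per the authors' deposited table, had none in the window.

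The sign of a member's fold went with the length of its transcript. All 6 members with a longest transcript under 1500 bases had negative folds, as did 21 of 26 from 1500 to 3000 bases, 11 of 15 from 3000 to 4500 bases and 1 of 11 at 4500 bases or more. The median fold moved from -0.12 in the shortest of these classes through -0.069 and -0.051 to 0.037 in the longest. Over all genes tested with a length, the share of negative folds moved in the same order, 76.1%, 63.7%, 44.6% and 26.3%, and the median from -0.084 through -0.033 and 0.011 to 0.051. The rank correlation of the Wald statistic with length was 0.553 over 58 members and 0.415 over 15957 genes. Most members have high counts: 53 of the 58 are among the 7979 genes with a mean of at least 430. Over those 7979 genes the rank correlation was 0.523. Their shares of negative folds by class were 89.4%, 71.2%, 44.4% and 22.4%, with medians of -0.12, -0.048, 0.010 and 0.053. Genes share their libraries and are no replicates of each other. The members' median transcript was 2791 bases long, beside 3341 for all genes tested.

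Within eIF3 the long Eif3a (5125 bases) held the highest fold, and Eif3h (1295 bases), Eif3k (1782 bases), Eif3i (2323 bases) and Eif3f (2514 bases) the 4 lowest. Eif3g, the shortest at 1101 bases, was at -0.062 per the authors' deposited table, so the order was not strict, and it stood at 0.017 with the length trend subtracted. With a smooth trend of length over all genes subtracted, Eif3f stood at -0.22 and Eif3i at -0.22, with adjusted p of 0.184 and 0.226, and Eif3h at -0.16 and Eif3k at -0.15, with adjusted p of 0.525 and 0.703. With the trend subtracted Eif4g1 stood at 0.089 and Eif2ak2 at 0.19 (adjusted p = 0.767 and 0.547). The median of all members with the trend subtracted was -0.029, and 36 of 58 had negative values. The trend was fitted over all genes tested with a length. Genes with a mean of at least 430, as most members have, had a median of -0.12 under 1500 bases, beside -0.084 over all genes. Subtraction may therefore have removed too little of the length trend from short members with high counts. A trend fitted to genes of like count was not tried. The longest annotated transcript need not be the one made in this tissue.

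**Figure D2:**
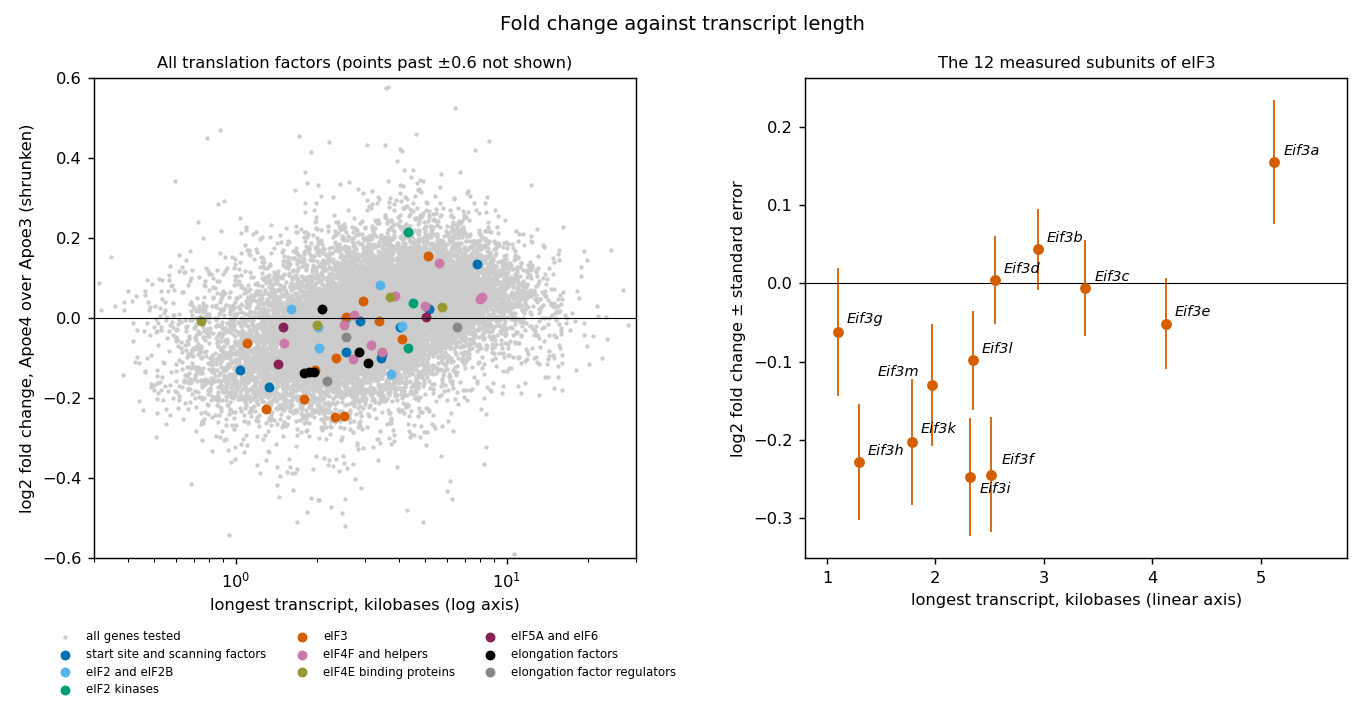
Left, log2 fold change (y axis, Apoe4 over Apoe3, the authors' shrunken values) against the length of the longest transcript (x axis, kilobases, log axis) for all genes tested in grey and translation factors in colour by role; right, the 12 tested eIF3 subunits with their standard errors on a linear length axis. Of the 11 members at or above 4500 bases, 10 lie above 0, and all 6 under 1500 bases lie below it.

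Levels of different members were compared as mean normalized counts per kilobase of the longest transcript, over the 10 libraries together. Eef1a1 was the highest at 40469 counts per kilobase, which is 39.0% of the sum over all members, and Eef2 followed at 9729. Next in order were Eif1 (5640), Eif5a (4330), Eif4a2 (3932) and Eif4g2 (3394), a relative of Eif4g1 that works without the cap-binding protein. The lowest tested member was Eif2ak2 at 103 counts per kilobase, close to Eif4ebp1 at 108 and Eef1e1 at 109. Since each gene has 1 mean with no spread over libraries, neighbours in this order cannot be called different.

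Paralogs differed widely in level. Per kilobase, Eef1a1 was 14.4 times as high as Eef1a2, Eif5a was 38.1 times as high as Eif5a2, and Eif1 was 7.04 times as high as Eif1b. Eif4a2 was 1.92 times as high as Eif4a1, and Eif4e3 was 2.56 times as high as Eif4e. These ratios depend on the transcript lengths taken. Eif5a is 1437 and Eif5a2 5027 bases long, with mean counts of 6222 and 571. Eif4e3 is 2515 and Eif4e 4991 bases long, with mean counts of 1672 and 1297. Eif4a1 shared 13.4% of its 150-base stretches with another annotated gene, so its count may be incomplete. The 12 measured eIF3 subunits, which sit together in the complex, ranged from 406 counts per kilobase for Eif3e to 2372 for Eif3h, a spread of 5.85-fold, with a median of 849. The transcript taken for Eif3e is 4123 bases long, and a shorter one in use would raise its level per kilobase.

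**Figure D3:**
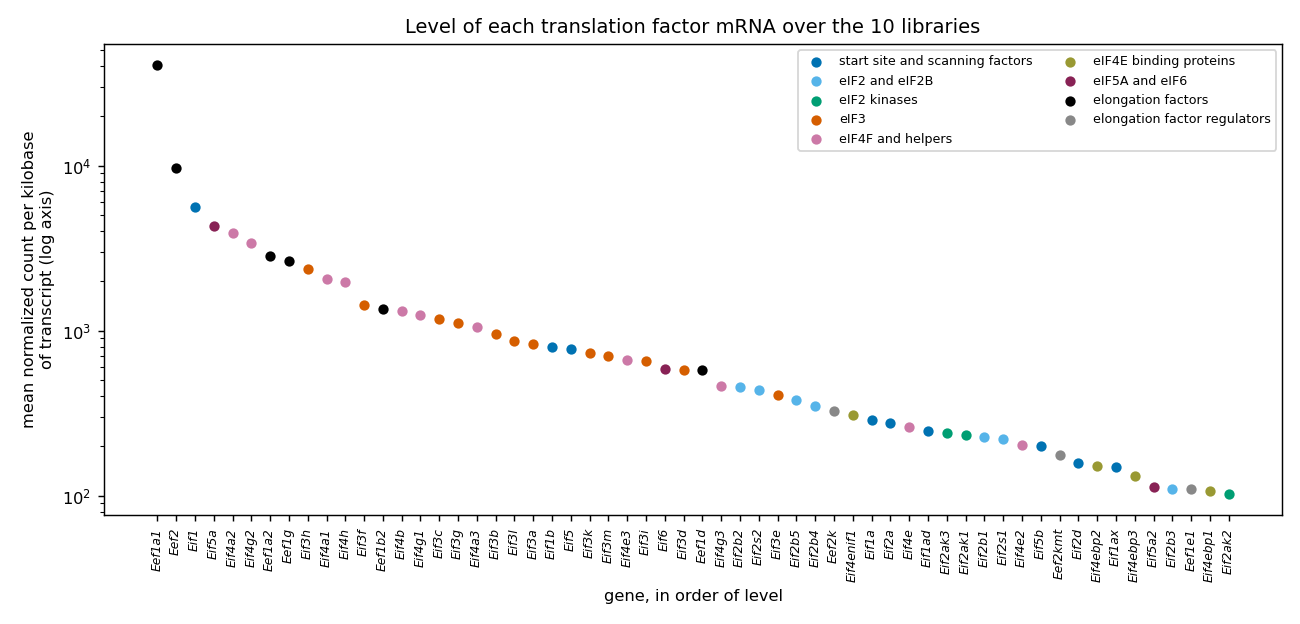
Mean normalized count per kilobase of the longest transcript (y axis, log axis) for the 58 tested translation factor genes in order of level (x axis), coloured by role. Eef1a1 stands alone at 40469, Eef2 follows at 9729, and the lowest member, Eif2ak2, is at 103.

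Other genes of the pathway gave 1 call among 62 tested, beside 0.779% of all genes tested. This was Asns, which makes asparagine and is a target of the stress factor Atf4, and it rose by 1.16 (log2 fold change, the authors' deposited table, adjusted p = 9.1e-59). It was 1 of 12 tested genes of the integrated stress response that acts through eIF2. In that list Atf4 itself stood at -0.15, Ddit3 at -0.20 and Trib3 at -0.30 per the authors' deposited table (adjusted p = 0.552, 0.359 and 0.167). Of the 12 genes, 5 had positive and 7 negative folds, Impact at 0.17 and Nars at 0.071 among the positive ones per the authors' deposited table (adjusted p = 0.477 and 0.663). None of 15 recycling, termination and poly(A) binding factors passed, the smallest p being that of Denr at -0.10 per the authors' deposited table (adjusted p = 0.676). In the mTORC1 and initiation control list, 0 of 16 passed, with 10 positive and 6 negative folds. An unadjusted p under 0.05 was reached by 4 of the 16, beside 10.3% of all genes tested. These were Rheb, Rps6 at -0.21, Rps6kb2 at -0.18 and Tsc1 at 0.15 per the authors' deposited table (adjusted p of the last 3 = 0.292, 0.426 and 0.472). Rheb, the GTPase that switches on mTORC1, was the nearest at -0.23 per the authors' deposited table (adjusted p = 0.0881), while Mtor was at 0.039 and Larp1 at 0.078. Of 9 genes that take part in the modification of eIF5A or eEF2, 8 had negative folds, beside 48.9% of all genes tested, and none passed. Their median longest transcript was 2296 bases long. The smallest p was that of Dohh, the last enzyme of hypusine synthesis, at -0.19 per the authors' deposited table (adjusted p = 0.438). The 10 factors of mitochondrial translation had a median of -0.032, and Tufm, the mitochondrial counterpart of eEF1A, was at -0.082 per the authors' deposited table (adjusted p = 0.68).

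For scale, 80 tested cytosolic ribosomal protein genes had a median fold of -0.18 (log2) and a median longest transcript of 1100 bases, and 36 aminoacyl-tRNA synthetase genes a median of -0.018 with 3339 bases. The median over all members, -0.023, lay near that of the synthetases. The medians of the elongation factors, -0.12, and of the listed TOP genes, -0.13, lay between those of the synthetases and the ribosomal proteins. Negative folds were held by 77 of the 80 ribosomal protein genes, 20 of the 36 synthetase genes and 39 of the 58 members, beside 48.9% of all genes tested. These differences between groups of genes were not tested.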

How the data were processed

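Poly(A)-selected RNA of olfactory epithelium was sequenced as paired reads, per the labels' protocols. The submitters' processing notes name STAR, featureCounts, DESeq2 and GRCm38; the settings, strand rule and annotation behind them were not stated in any source at hand. A single results table was deposited by the authors. Its mean is a signal, normalized counts averaged over 10 libraries by the authors. The log2 fold changes and log2 errors deposited are shrunk towards 0 (the error has a ceiling of 0.105). The deposited score is the Wald statistic, fold over error within 1.3e-13. Each deposited p-value is its two-sided normal p within 2.8e-15, and the adjusted p-values equal Benjamini-Hochberg values over 16050 genes within 1.5e-14. Genes marked low (8314) had means up to 9.99.

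All tests are the authors', called at an adjusted p under 0.05. The design planned a count test, which needs values per library, and otherwise the authors' test, which was used. Folds were unshrunken from the ratio of error to ceiling, and means per genotype were derived from the mean and the unshrunken fold, both with Python 3.11.15 (numpy 2.4.6). Intervals are 95% normal intervals. The steps were tested on simulated counts. Lengths are of the longest GENCODE vM21 transcript (99.4% of tested genes, all 61 members), and positions are RefSeq's. The trend was a lowess curve with a fraction of 0.3 (statsmodels 0.14.6). Named members are those with an unadjusted p under 0.05, the extremes of each role, listed TOP genes and a list of core factors; of other pathway lists, genes called or else the one with the smallest p. Other members, and Atf4, Ddit3, Trib3, Impact, Nars, Mtor, Larp1, Rps6, Rps6kb2 and Tsc1, were named after their values were seen. The members and all lists were chosen with earlier results of these data known.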

Additional observations from a re-analysis of the deposited data

How the results depend on the processing

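None of the members passed at an adjusted p under 0.05 with no filter on the mean or with a mean of at least 50. None passed without X and Y genes or with the length trend subtracted. With unshrunken folds or against a fold of 1.2 none passed either, but these settings could not add a call. Unshrinking leaves each Wald statistic as it was, and the test against a fold is stricter. At an adjusted p under 0.1, 2 passed (Eif3f and Eif3i), both with negative folds. Over all genes the calls were 125 in the authors' analysis, 20 against a fold of 1.2, 170 at an adjusted p under 0.1, and from 101 to 125 otherwise. Over all settings but the fold of 1.2 and the looser threshold, the adjusted p of the 8 members with an unadjusted p under 0.05 ran from 0.0862 to 0.887. Subtracting the length trend turned the sign of some small values: the median of eIF2 and eIF2B became 0.020 and that of eIF4F and helpers -0.0065, Eif1ax -0.021, Eif4e -0.0096, Eif4ebp1 0.026, Eif4ebp2 -0.024, Eif5a2 -0.037 and Eif6 0.041. None of these values was called, and the cause was not tested. Among all 58 members 15 changed sign with the trend subtracted, Eif1a (0.0042) and Eif3g (0.017) among those given above. Leaving out replicates and a second normalization were not run, as they need values per library. No paired analysis was possible because the table holds no values per library. The tested member with the lowest mean, Eif4ebp3 at 98.2, had the largest error (0.105) and needed the largest change for a call (0.67 unshrunken).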

Other observations

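The error of each fold gives the spread between libraries that the authors' model assigns to a gene, as a coefficient of variation. Its median over the 58 tested members was 9.45%. It was lowest for Eif4b at 5.31%, Eif4a2 at 5.94%, Eif4a1 at 5.94% and Eif3b at 5.96%. It was highest for Eif4ebp3 at 20.3% and Eif4ebp1 at 18.2%, which have low means, followed by Eif6 at 14.0% and Eif1b at 13.4%. These are values of a fitted model that pools information over genes, not measured spreads, and they were not compared by a test.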
